A study of Mus musculus with 2 samples.

Results

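The genes described here are 43 neuronal and synaptic genes, chosen by name for the neuronal cytoskeleton, the synaptic vesicle, transmitter handling, the postsynaptic density and neuronal RNA binding. They were chosen with earlier results of these data known. All 43 had a row in the deposited table of 53465 mouse genes, of which 22040 are protein-coding. The series profiled endothelial cells, the cells that line blood vessels, isolated from C57Bl/6 mice of the tie2-cre genotype and treated with GFP or with NeuroD1, in a study of intravenous NeuroD1 gene therapy after ischemic stroke. Each treatment had 1 library, made from 10000 lysed cells, and the protocol speaks of cells from 3 mice without saying whether they were pooled for each library. Both groups carry the tie2-cre transgene. Tie2 drives Cre in endothelial cells and also in part of the blood lineage, so the genotype alone does not restrict a signal to endothelium. The labels give no vector, dose, age, time after treatment or stroke status. The question the comparison addresses is whether neuronal genes differ in these cells when NeuroD1, a transcription factor that drives neuronal differentiation, has been given in place of GFP. Because each treatment is a single library, the differences below have no replicate to check them, and none is given a p-value.

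Neurons are held in shape by microtubules and neurofilaments whose subunits are largely neuron-specific. Vesicles filled by dedicated transporters fuse with the presynaptic membrane through SNARE proteins, under the control of calcium sensors such as synaptotagmin and clamps such as complexin. The released transmitter acts on receptors anchored by scaffold proteins on the postsynaptic side. In non-neuronal cells many of these genes are kept silent by the repressor REST, which binds the RE1 element, while NeuroD1-type factors bind the E-box, whose core reads CANNTG. Endothelial cells are not known for the synaptic apparatus, so the level of olfactory receptor (Olfr) genes, which these cells are likewise not known to use, was taken as the comparison for low signal.

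Values are FPKM, fragments per kilobase of exon scaled for library size, as deposited. FPKM multiplied by exon length fell on whole multiples of a fixed step in each library, which returned whole reads for 51162 genes (95.7%), including 40 of the 43 members. GFP held 2011130 such reads and NeuroD1 2001426, of which 19 genes above 1000 FPKM took 52.3% and 57.4%. A protein-coding gene had a median of 24 reads in GFP and 20 in NeuroD1, while members with recovered reads had a median of 32.5 and 36.5 reads. Neurod1 itself, the check of the labels, had 4 reads (0.664 FPKM) in GFP and 970 reads (182 FPKM) in NeuroD1. Intervals on ratios are exact 95% Clopper-Pearson intervals of the reads and cover counting error only. They compare the 2 libraries and not the treatments.

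The regions before the start of 5 members are shown first, since both kinds of factor named above act on such regions. RefSeq promoters (GRCm38.p6, 250 bases before to 50 bases after the start) were matched by symbol for 30 members, with 49 promoters in all. Slc32a1 and Ncdn had the highest differences, NeuroD1 minus GFP, Slc17a7 was one of 7 members with a read interval above 1, Vsnl1 was among the 3 lowest differences, and Syn1 is shown for its RE1 letters. Capitals mark every CANNTG and, in Syn1, TTCAGCACC, the left part of RE1. The windows are chr2:158610508-158610757 for Slc32a1 and chr7:45163671-45163920 for Slc17a7, both on the plus strand, and chr4:126753439-126753543 for Ncdn, chr12:11436614-11436828 for Vsnl1 and chrX:20921005-20921168 for Syn1, all on the minus strand. Each holds the bases before the RefSeq start that lie in no annotated exon of a protein-coding gene, 5′ to 3′ along the gene:
Slc32a1: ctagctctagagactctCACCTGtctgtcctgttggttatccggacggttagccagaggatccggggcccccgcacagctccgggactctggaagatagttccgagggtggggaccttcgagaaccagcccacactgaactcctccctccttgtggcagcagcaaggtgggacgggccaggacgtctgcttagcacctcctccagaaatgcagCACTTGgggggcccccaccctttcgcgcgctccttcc
Ncdn: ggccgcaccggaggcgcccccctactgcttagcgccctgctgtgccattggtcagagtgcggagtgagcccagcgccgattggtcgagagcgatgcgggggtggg
Slc17a7: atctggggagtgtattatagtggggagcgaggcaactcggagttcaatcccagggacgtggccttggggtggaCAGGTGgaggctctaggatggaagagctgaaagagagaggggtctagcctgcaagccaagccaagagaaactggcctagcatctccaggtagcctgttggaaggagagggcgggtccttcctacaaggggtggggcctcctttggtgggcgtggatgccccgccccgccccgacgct
Vsnl1: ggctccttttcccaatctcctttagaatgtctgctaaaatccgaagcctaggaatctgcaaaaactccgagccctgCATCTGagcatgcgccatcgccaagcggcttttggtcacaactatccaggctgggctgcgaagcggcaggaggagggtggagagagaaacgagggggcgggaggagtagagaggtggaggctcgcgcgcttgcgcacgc
Syn1: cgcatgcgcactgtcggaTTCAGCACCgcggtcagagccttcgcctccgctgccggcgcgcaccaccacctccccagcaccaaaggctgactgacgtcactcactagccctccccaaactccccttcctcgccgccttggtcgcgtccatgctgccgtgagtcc

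An E-box was present in windows of members that stood higher in NeuroD1 and in that of Vsnl1, which stood lower. Vsnl1 had only 6 and 4 reads, and its interval (0.157 to 3.18) included 1, so its direction is not settled. The Slc32a1 window held 2, those of Slc17a7 and Vsnl1 held 1 each, and those of Ncdn and Syn1 held 0. The Ncdn window is cut to 105 bases, and its full 250 bases before the start held 1. Searched on both strands over the whole promoters, CANNTG occurred in 34 of the 49 member promoters (69.4%) and in 72.3% of all 32851 promoters. Of the narrower forms, both of which are cases of this core, CAGATG occurred in 9 member promoters (18.4%, against 17.2% of all) and CAGCTG in 11 (22.4%, against 16.3%). The 49 promoters count several members more than once. With 1 promoter for each of the 30 members, CAGATG occurred in 4 and CAGCTG in 5, so the CAGCTG share depends on how promoters are counted. Taking 1 promoter for each of the 30 members, the 19 with a CANNTG had a median difference of 0.24 in log2(FPKM + 1), NeuroD1 minus GFP, and the 11 without had 0.31. TTCAGCACC occurred in 1 member promoter (2.04%), that of Syn1, and in 0.371% of all promoters. It occurred in 4 of 75 promoters (5.33%) of the other neuronal genes described below. A match is a description of letters and not of binding.

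In median level the members lay above Olfr genes in both libraries, below protein-coding genes in GFP and above them in NeuroD1. The member median came to 2.55 (GFP) and 3.63 FPKM (NeuroD1), where the 1406 Olfr genes had 1.59 and 1.48 FPKM and protein-coding genes 3.10 and 2.98 FPKM. The range was 0.647 FPKM (Slc32a1) to 26.8 FPKM (Rbfox3) in GFP and 0.730 FPKM (Dcx) to 31.02 FPKM (Rbfox3) in NeuroD1. Above the Olfr median lay 33 members in GFP and 37 in NeuroD1, that is 76.7% and 86.0%, where 81.3% and 81.0% of protein-coding genes outside the chemoreceptors did. Above the 95th percentile of Olfr genes, 5.001 FPKM in GFP and 5.62 FPKM in NeuroD1, lay 8 members in each library (18.6%), against a background of 24.4% and 18.7%. Read against that background, the members did not stand apart from protein-coding genes as a whole. By contrast, 14 and 13 of 15 endothelial markers passed the 95th percentile, led by Ly6c1 (48.6 and 60.8 FPKM), the tight junction protein Cldn5 (33.9 and 31.5 FPKM) and the glucose transporter Slc2a1 (33.4 and 36.0 FPKM). The endothelial label thus matched its markers, while most members lay below the Olfr 95th percentile, as did most protein-coding genes outside the chemoreceptors.

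**Figure D1:**
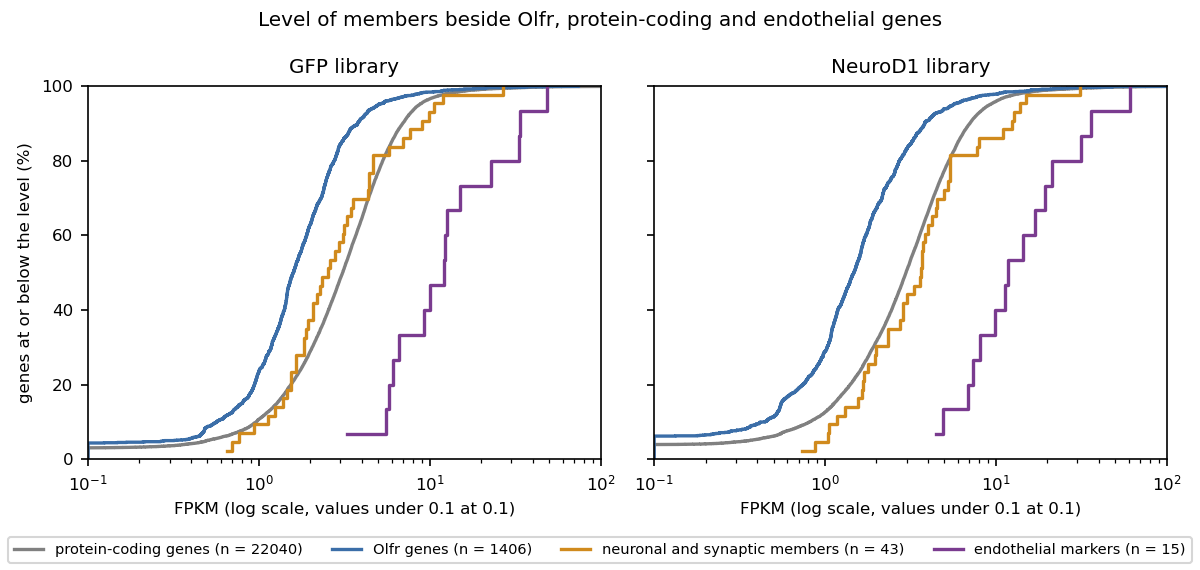
Cumulative share of genes (vertical axis, percent) at or below each FPKM (horizontal axis, log scale) in the GFP and NeuroD1 libraries, for protein-coding genes, Olfr genes, the 43 members and 15 endothelial markers. The member curve runs close to that of protein-coding genes in both libraries, above the Olfr level at its median and far below the endothelial markers.

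In one library or both, 9 members passed the Olfr 95th percentile (20.9%, against 28.1% of protein-coding genes), and 7 passed in both libraries (16.3%, against 15.1%). Rbfox3, the splicing factor known as the neuronal nuclear antigen NeuN, was far above the rest, with 344 reads in GFP and 352 in NeuroD1 (26.8 and 31.02 FPKM, ratio 1.16, interval 0.996 to 1.35). The table gives 1 value per gene, so where in Rbfox3 these reads lie, and whether they come from the neuronal transcript, was not tested. Uchl1, a neuronal ubiquitin hydrolase, stood at 11.9 and 15.1 FPKM (43 and 48 reads, interval 0.820 to 1.95). Shank1, a postsynaptic scaffold, stood at 10.5 and 12.8 FPKM on 245 and 263 reads. These 3 were the highest members in GFP, and each was somewhat higher in NeuroD1. Nrgn, a calmodulin-binding protein of dendritic spines, stood at 9.97 and 13.8 FPKM (32 and 39 reads, interval 0.843 to 2.28). Tubb3, the neuronal beta tubulin, stood at 8.97 and 12.4 FPKM (37 and 45 reads, interval 0.872 to 2.19), and its reads may be shared with closely similar tubulin genes. Grin1, the obligatory subunit of NMDA receptors, stood at 7.70 and 7.72 FPKM (165 and 146 reads, interval 0.797 to 1.26). Its exons share 1307 bases with the antisense gene Grin1os, and no strand setting of the counting is stated. Of the other 3, the vesicle SNARE Vamp2 was above the Olfr 95th percentile in both libraries, the complexin Cplx2 only in NeuroD1 and the scaffold Dlg4 only in GFP. The nearest members were Dlg4 (5.82 FPKM) just above and Thy1 (4.69 FPKM) just below in GFP, and Grin1 (7.72 FPKM) and Slc17a7 (5.42 FPKM) in NeuroD1.

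By FPKM, several genes that define neurons were at or below the Olfr median in one library or both. The microtubule-associated protein Map2 had a level of 1.13 FPKM in GFP and 0.873 in NeuroD1, and doublecortin (Dcx), a marker of young neurons, at 0.931 and 0.730 FPKM. Each was lower than the Olfr median of 1.59 FPKM in GFP and 1.48 FPKM in NeuroD1. By reads the order was the reverse. Map2 had 41 and 28 reads and Dcx 26 and 18, where the Olfr medians were 9 and 7. Vsnl1, with 6 and 4 reads, was below these medians too. The exons of Map2 and Dcx span 16449 and 12647 bases, where Olfr genes have a median of 2576.5 and members 5782. The part of exon length in the comparison with Olfr genes was not tested. The SNARE protein Snap25 stood at 1.53 and 2.34 FPKM and the calcium sensor Syt1 at 1.25 and 1.78 FPKM, below the Olfr median in GFP and above it in NeuroD1. Gad2, an enzyme of GABA synthesis, was below it in both libraries (0.770 and 1.31 FPKM), as were Syt4 (0.696 and 1.18 FPKM) and Vsnl1 (1.39 and 1.05 FPKM), a neuronal calcium sensor.

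**Figure D2:**
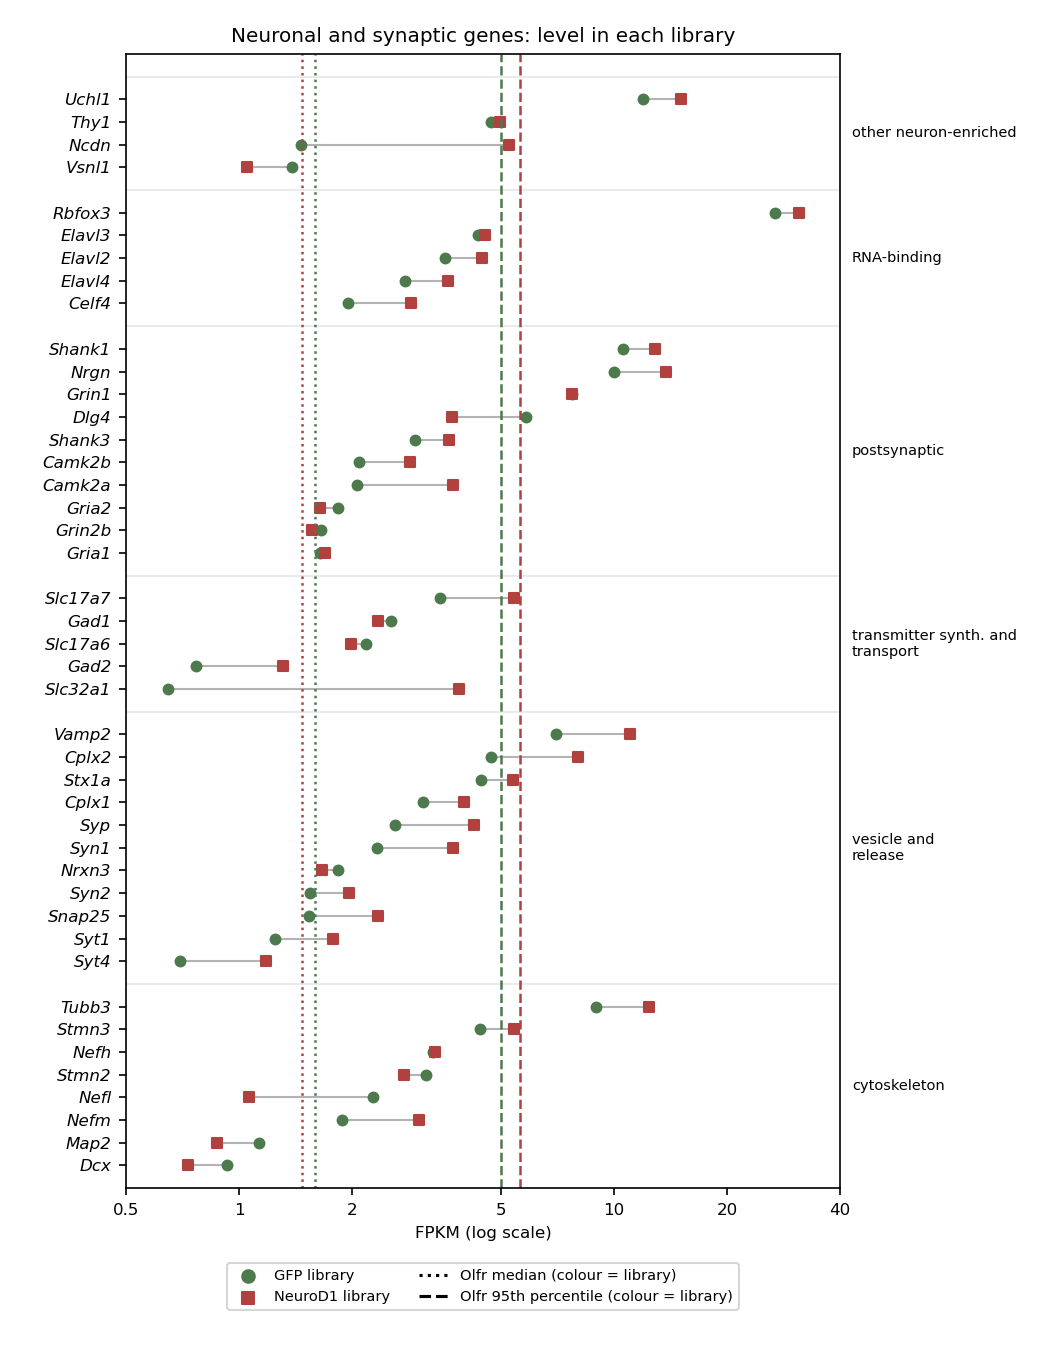
FPKM (log scale) of the 43 members in the GFP library (green circles) and the NeuroD1 library (red squares), grouped by role, with the Olfr median (dotted) and 95th percentile (dashed) of each library. Rbfox3 stands apart on the right, 7 members lie beyond both dashed lines in their own libraries, and Map2, Dcx, Gad2, Syt4 and Vsnl1 lie left of the dotted lines.

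The base composition of the genes moved with the level. Across the 43 members the GC content of the longest transcript and log2(FPKM + 1) had a Pearson r of 0.474 in GFP and 0.624 in NeuroD1 (Spearman rho 0.445 and 0.660). These are correlations across genes that share their libraries, not across replicates. Over 20681 protein-coding genes r was 0.162 and 0.165. The Olfr genes are poor in GC, with a median of 39.3%, while the members had a median of 53.2% and the 9 members above the Olfr 95th percentile ranged from 46.8% to 61.4%. Among protein-coding genes the median in NeuroD1 was 1.93 FPKM in the lowest of 10 GC classes and 3.51 FPKM in the highest. The part of GC content in the distance between members and Olfr genes was not tested. The difference between libraries moved with it too among members (r of 0.422 with GC content and -0.374 with exon length, 43 genes) but hardly among protein-coding genes (0.0227 and 0.0245).

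**Figure D3:**
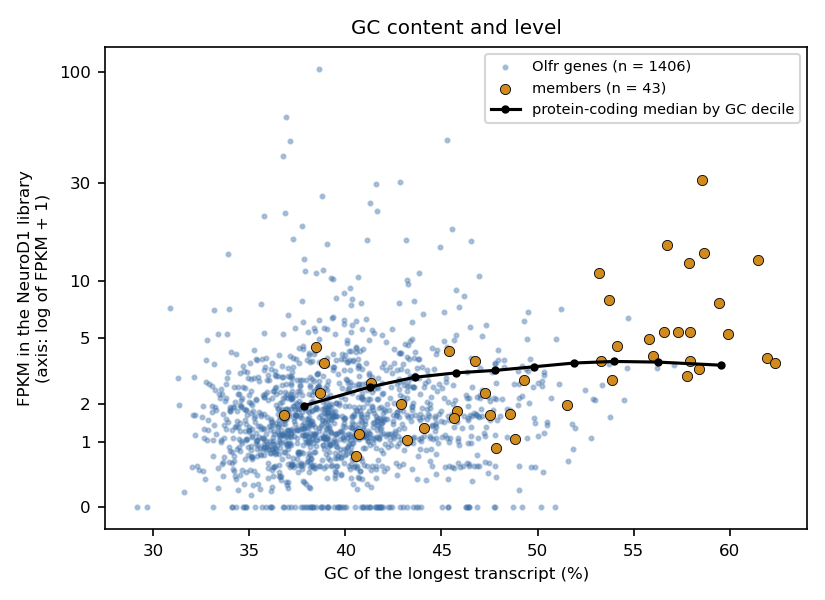
FPKM in the NeuroD1 library (vertical axis, log of FPKM + 1) against GC content of the longest transcript (horizontal axis, percent) for Olfr genes, the 43 members and the protein-coding median in 10 GC classes. Members above 10 FPKM lie at a GC content of 53.2% or more, and the protein-coding median is 1.93 FPKM in the lowest GC class and 3.51 FPKM in the highest.

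Between the libraries the members lay slightly higher in NeuroD1. Of 42 members with at least 1 FPKM in one library or both, 32 (76.2%) had a difference above 0 in log2(FPKM + 1), NeuroD1 minus GFP, where 48.4% of 20697 protein-coding genes did. Because the members were chosen with earlier results of these data known, this excess is not independent support for a shift. The median difference was 0.26 over the members (middle 50% from 0.01 to 0.42), -0.02 over protein-coding genes and -0.03 over all 45200 genes past the minimum. At a difference of at least 1, which is 2-fold on this scale, 2 members were higher (4.76%, background 2.62%) and 0 were lower (background 3.84%). Of the 39 members past the minimum with recovered reads, 7 had an interval above 1 (17.9%, background 5.26%) and 0 had one below 1 (background 5.70%). Among the 38 with at least 20 reads over both libraries the counts were 7 above 1 (18.4%, background 5.94%) and 0 below 1 (background 6.23%). In bulk RNA, a different number of cells of a type and a different amount of RNA per cell cannot be told apart.

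The size of this shift depended on how the libraries were scaled to each other. The deposited values are close to a scaling in which the 19 genes above 1000 FPKM are left out, which gave a member median of 0.26 as well. With both libraries set to the same sum of FPKM the member median was 0.07 with 26 of 42 above 0. With recovered reads divided by the library total the member median was 0.12 with 27 of 42 above 0. Among protein-coding genes 30.03% and 36.9% were above 0 on these scales, against 48.4% with the deposited values. These scalings moved protein-coding genes alike, to medians of -0.20 and -0.15, so that the members stood 0.28, 0.27 and 0.27 above the protein-coding median under the deposited values, the same sum and the read totals. Among protein-coding genes past the 2-fold limit the share that was higher in NeuroD1 was 40.6%, 23.5% and 27.8% under the same 3 scalings. Protein-coding genes of higher level also leaned towards NeuroD1, with a median of 0.03 at a mean of 5 to 10 FPKM and 0.17 at 10 FPKM or more. In these classes the 3 and 5 members had medians of 0.59 and 0.31. At 2 to 5 FPKM, where 22 members lie, their median was 0.27 against -0.03, and below 2 FPKM the 12 members had -0.01 against -0.09.

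**Figure D4:**
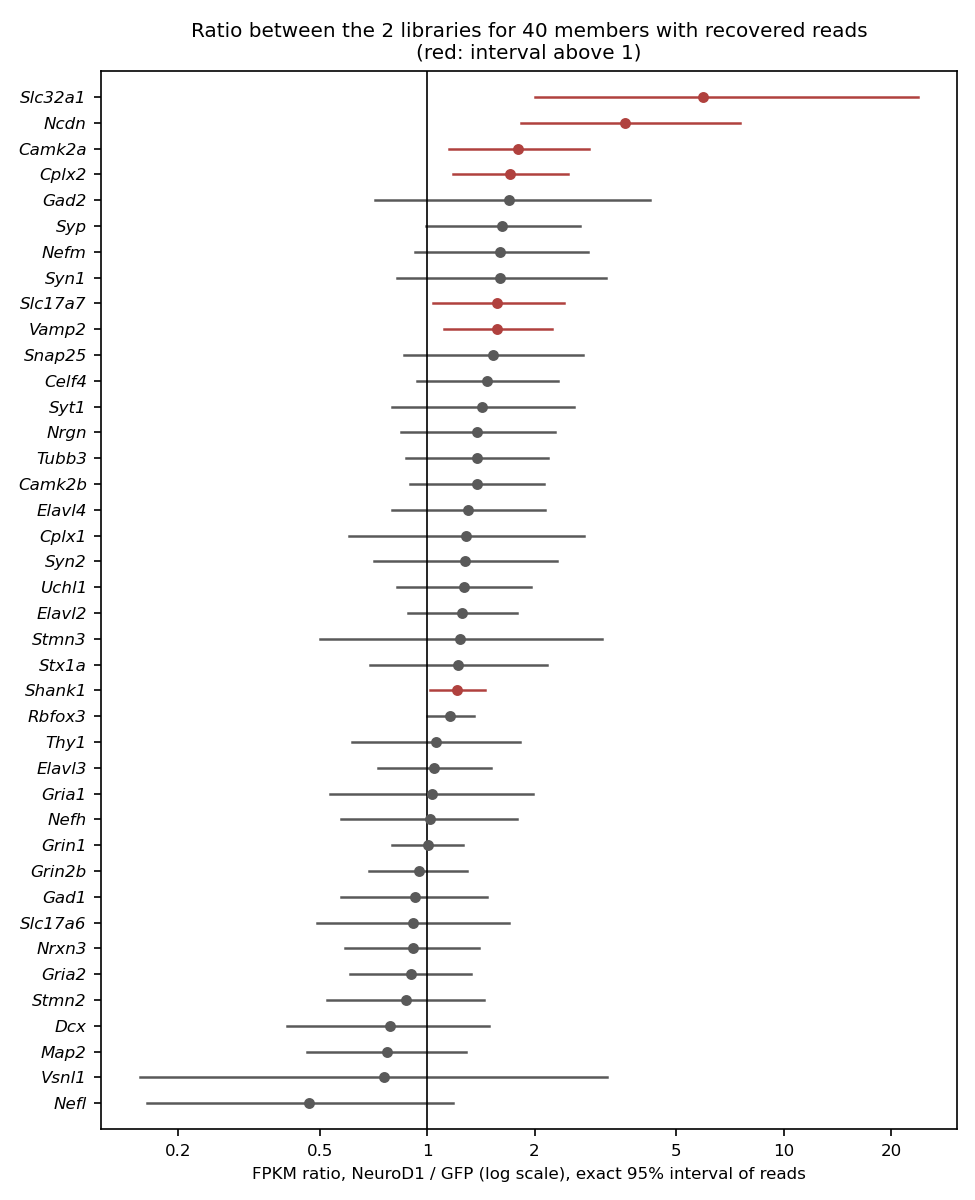
FPKM ratio of NeuroD1 to GFP (log scale) with the exact 95% interval of the reads for the 40 members with recovered reads, sorted by ratio. The 7 intervals in red lie above 1, from Slc32a1 (5.95) to Shank1 (1.22), and no interval lies below 1.

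The cytoskeletal members held no common direction. Of 7 past the minimum, 4 were above 0, with a median of 0.02 that was -0.16 with the same sum of FPKM and -0.11 by read totals. The neurofilament genes, whose products set axon calibre, went apart. The light chain gene Nefl stood at 2.28 and 1.06 FPKM in GFP and NeuroD1 (17 and 7 reads, ratio 0.466, interval 0.164 to 1.18) and was the lowest member by difference (-0.67). The medium chain gene Nefm stood at 1.88 and 3.02 FPKM (24 and 34 reads, interval 0.924 to 2.83). Nefl and Nefm share 1108 bases of exon on opposite strands, so part of their reads may not be told apart. The heavy chain gene Nefh had almost the same level in both libraries, at 3.29 and 3.34 FPKM. The tubulin-binding stathmins Stmn2 (3.15 and 2.75 FPKM) and Stmn3 (4.38 and 5.42 FPKM) had intervals on both sides of 1.

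Most members that act in vesicle release were higher in NeuroD1. Of 11, 10 were above 0, with a median of 0.36, and the count was 10 as well with the same sum of FPKM (median 0.24) and by read totals (median 0.27). Vamp2, the SNARE on the vesicle (chromosome 11, 69088490 to 69092384 in GRCm38, plus strand), had 59 reads in GFP and 82 in NeuroD1, at 7.01 and 11.04 FPKM (ratio 1.57, interval 1.11 to 2.24). Cplx2, a clamp of SNARE complexes, had 51 and 77 reads, at 4.68 and 8.01 FPKM (ratio 1.71, interval 1.19 to 2.49). For Syp, an abundant vesicle membrane protein, the interval reached just below 1 (2.61 and 4.23 FPKM, 30 and 43 reads, interval 0.995 to 2.68). Its exons share 875 bases with a predicted gene on the other strand. The remaining 7 above 0 ranged from 0.22 (Syn2) to 0.51 (Syn1), the latter at 2.33 and 3.73 FPKM on 17 and 24 reads. Both synapsins tether vesicles to the cytoskeleton. Nrxn3, an adhesion receptor of the presynapse, stood at 1.83 and 1.67 FPKM and was the member of this group that was lower in NeuroD1.

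Genes for transmitter synthesis and transport held the largest single difference. Slc32a1, which loads GABA and glycine into vesicles (chromosome 2, 158610767 to 158615748, plus strand), had 4 reads in GFP and 21 in NeuroD1, at 0.647 and 3.85 FPKM (ratio 5.95, interval 2.01 to 23.8, difference 1.56). Among Olfr genes its level lay at percentile 11.7 in GFP and 90.3 in NeuroD1, and 697 bases of its exons are shared with a predicted gene on the other strand. Slc17a7, the vesicular glutamate transporter of cortical neurons, had 41 and 57 reads, at 3.44 and 5.42 FPKM (ratio 1.57, interval 1.04 to 2.41). The other 3 did not follow together. The second glutamate transporter Slc17a6 stood at 2.18 and 1.99 FPKM, and the GABA-synthesizing enzyme Gad1 at 2.55 and 2.35 FPKM, both lower in NeuroD1. Gad2 had 10 and 15 reads (interval 0.714 to 4.23). Of the 3 genes that mark inhibitory neurons, the interval of Slc32a1 lay above 1 and those of Gad1 (ratio 0.922) and Gad2 (ratio 1.70) included 1, and the differences between these genes were not tested.

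Among postsynaptic members, 7 of 10 were above 0 with a median of 0.13, which was -0.04 with the same sum of FPKM and 0.01 by read totals. Camk2a, the alpha subunit of the calcium and calmodulin dependent kinase of the postsynaptic density, had 34 reads in GFP and 54 in NeuroD1, at 2.06 and 3.71 FPKM (ratio 1.80, interval 1.15 to 2.85). Its partner Camk2b stood at 2.08 and 2.87 FPKM (42 and 51 reads, interval 0.896 to 2.12). Shank1 had a ratio of 1.22 (interval 1.02 to 1.45), and Shank3 stood at 2.95 and 3.63 FPKM with no recovered reads. For the glutamate receptor subunits the intervals all included 1. Gria2, Grin2b, Grin1 and Gria1 had ratios of 0.899, 0.946, 1.002 and 1.03, on 20 to 165 reads in each library. Dlg4, the scaffold PSD-95 that anchors these receptors (chromosome 11, plus strand), was lower in NeuroD1 at 5.82 and 3.71 FPKM, a difference of -0.53, and has no interval because its reads were not recovered.

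Of the RNA-binding members and the rest, 1 gene, Ncdn, had an interval that excluded 1. All 5 RNA-binding members were above 0 (median 0.26), of which 3 were with the same sum of FPKM (median 0.07) and 4 by read totals (median 0.12). Apart from Rbfox3, they were Elavl2, Elavl3 and Elavl4, neuronal Hu proteins that bind AU-rich RNA, and the splicing regulator Celf4, with ratios of 1.25, 1.05, 1.30 and 1.47, and the intervals of all 4 included 1. Ncdn, which encodes neurochondrin, a neuronal cytoplasmic protein (chromosome 4, minus strand), had 12 reads in GFP and 38 in NeuroD1, at 1.46 and 5.25 FPKM (ratio 3.59, interval 1.83 to 7.54, difference 1.34). Vsnl1 had 6 and 4 reads (ratio 0.755, interval 0.157 to 3.18), and the surface glycoprotein Thy1 stood at 4.69 and 4.96 FPKM.

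Scaling bore on which members kept an interval above 1. Slc32a1, Ncdn and Cplx2 kept it with the same sum of FPKM, where the lower bounds were 1.70, 1.56 and 1.01. Camk2a kept it by read totals (lower bound 1.02) but not with the same sum (0.976). Shank1, Slc17a7 and Vamp2 lost it under both, with lower bounds of 0.864, 0.879 and 0.945 with the same sum.

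Other neuronal genes, listed by role but with earlier results of these data known, did not show the shift. The 66 genes had a median difference of 0.00, with 33 of 66 above 0 and 0 past the 2-fold limit in either direction, and their summed levels were nearly equal (208.8 FPKM in GFP, 208.6 in NeuroD1). The sum over the 43 members was 172 and 216 FPKM. Genes of the release machinery, the same process as the member group with 10 of 11 above 0, had 6 of 18 above 0 and a median of -0.08. Ion channels and pumps had 6 of 12 above 0 (median 0.03). Cacna1b, the pore of N-type calcium channels, stood at 3.14 and 1.81 FPKM (69 and 35 reads, ratio 0.575, interval 0.371 to 0.875). Receptors and scaffolds had 11 of 16 above 0 (median 0.05). Cytoskeletal and identity genes had 10 of 20 above 0 (median 0.01), led by the neuronal enolase Eno2 at 7.31 and 6.76 FPKM. With the same sum of FPKM all 4 of these lists had medians below 0, from -0.25 to -0.10. The protein-coding median was -0.20 on that scale, with the release machinery list below it and the other lists above it. Members and other neuronal genes together had 65 of 108 above 0 and a median of 0.06.

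**Figure D5:**
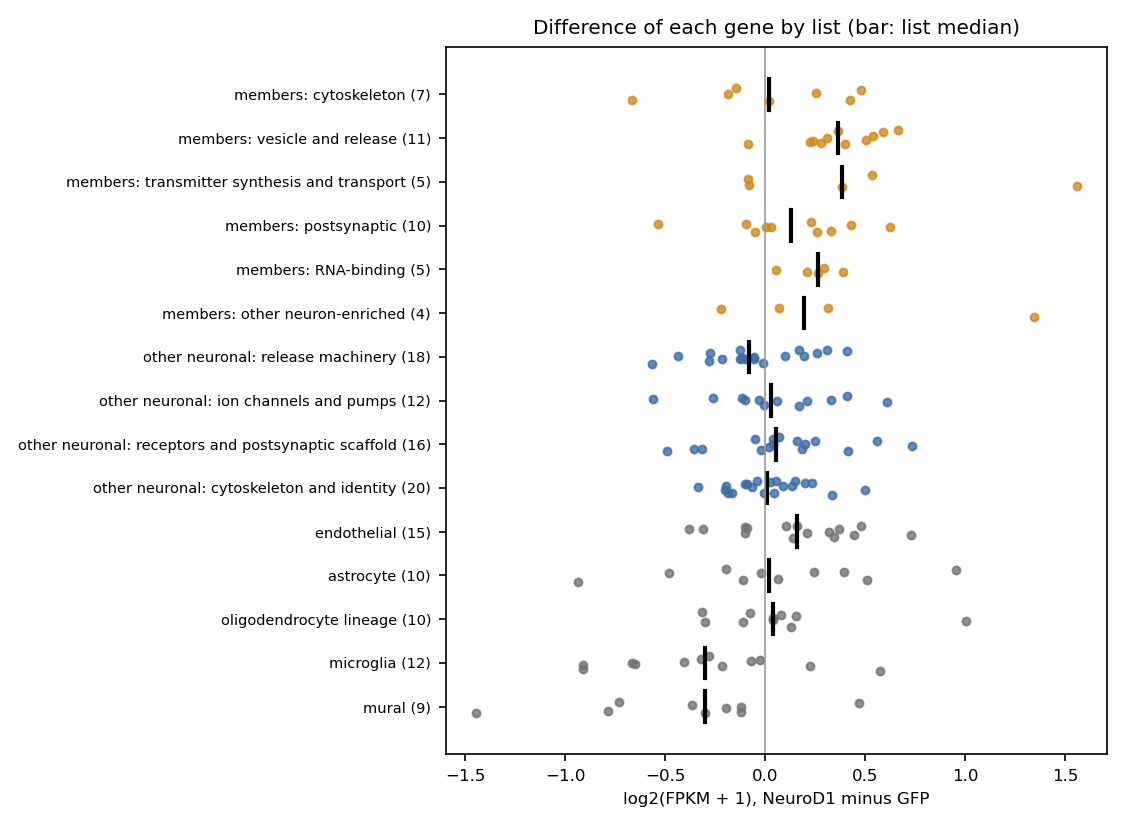
Difference in log2(FPKM + 1), NeuroD1 minus GFP, of each gene past 1 FPKM, by list, with the list median as a bar. Member lists (orange) have medians from 0.02 to 0.38, the other neuronal lists (blue) from -0.08 to 0.05, and microglia and mural markers (grey) have medians of -0.30.

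Markers of other cell types that an isolate of brain vessels could hold all had values above 0 in both libraries. So did 95.7% of Olfr genes in GFP and 93.8% in NeuroD1, so such a value does not show that these cells were present. Above the Olfr 95th percentile in GFP and NeuroD1 lay 2 and 1 of 10 astrocyte markers and 2 and 2 of 11 oligodendrocyte lineage markers. For microglia these were 4 and 2 of 12, and for mural cells 2 and 1 of 10. Summed levels were 41.4 and 46.5 FPKM for 10 astrocyte markers, led by Glul (16.2 and 21.6 FPKM), and 34.1 and 34.1 FPKM for 11 oligodendrocyte lineage markers, led by Cnp (8.09 and 7.61 FPKM). Their median differences were 0.02 and 0.04. Single astrocyte markers went both ways: of 9 with recovered reads, 2 had an interval above 1 and 1 below. These, named after their values were seen, were Glul (ratio 1.33, interval 1.04 to 1.72), the glutamate transporter Slc1a2 (21 and 60 reads, ratio 3.24, interval 1.94 to 5.60) and Aldh1l1 (33 and 11 reads, ratio 0.378, interval 0.172 to 0.766). Microglia markers summed to 48.7 and 44.1 FPKM, with Tyrobp highest (11.5 and 17.7 FPKM), and had 2 of 12 above 0 (median -0.30). Mural markers summed to 37.4 and 31.2 FPKM, with Acta2 highest (7.63 and 10.9 FPKM), and had 1 of 9 above 0 (median -0.30). The endothelial markers had 10 of 15 above 0 and a median of 0.16, which was -0.06 with the same sum of FPKM. Of 14 with recovered reads, 5 had an interval above 1 and 0 below, a larger share than the 7 of 39 members. Their read medians, 133 and 144.5, were also higher than those of the members (32.5 and 36.5). Intervals above 1 were thus not particular to the members. The part of these cell types in the neuronal values was not tested.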

How the data were processed

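The data are 1 table of FPKM values deposited by the authors, with 1 library for GFP and 1 for NeuroD1. Per the submitters' processing notes, Bowtie2 2.3.5.1, featureCounts 1.6.3, DESeq and the GRCm38 build were used. The handling of strand, multiply mapped reads and molecular identifiers was not given in the sources used here. Per the labels' protocols RNA was primed with DRUG-seq primers, a method that barcodes the 3' end. If reads gather there, division by full exon length lowers long genes.

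Merged exon lengths came from GENCODE M21 (GRCm38). FPKM times length was divided by the step of each library, 452.7 in GFP and 512.7 in NeuroD1, and values within 0.02 of a whole number counted as reads. The deposited FPKM were used without rescaling. Differences are log2(FPKM + 1), which understates low genes, over genes with at least 1 FPKM in one library or both. Olfr rows were found by symbol. GC content is that of the longest GENCODE transcript.

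The members and lists were chosen with earlier results of these data known. Described in full were members above the Olfr 95th percentile, those with an interval excluding 1 and the 3 highest and 3 lowest differences. Of the other neuronal lists the highest by mean level and any with an interval excluding 1 were to be named, of which some are not reported here, of endothelial markers the 3 highest and of other cell types the highest. Nefm, Syp, Syn1 and other members in the group accounts are given in brief. Steps were tested on simulated data. Alternatives were pseudocounts of 0.1 and 5, other minimums, scalings, reference genes and a 99% interval. The tools were scipy 1.17.1 for intervals, pandas 2.3.3 and numpy 2.4.6 for tables, and matplotlib 3.10.9, under Python 3.11.15.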

Additional observations from a re-analysis of the deposited data

How the results depend on the processing

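No paired analysis was possible because GFP and NeuroD1 had a single library apiece, so no replicate could be dropped either. Read totals, members without exon overlap, members joined with other neuronal genes and protein-coding Olfr rows were chosen after seeing the data. The median difference, 0.26, was 0.14 with a pseudocount of 5, 0.0707 with the same sum of FPKM, 0.12 by read totals and 0.0633 with other neuronal genes joined. Members above 0, 32 of 42, were 12 of 13 at a minimum of 5 FPKM, 21 of 26 without exon overlap and 65 of 108 with other neuronal genes, of which 33 of 66 were above 0. Members 2-fold higher, 2 as reported, were 0 with a pseudocount of 5 and 1 at 5 FPKM, and those 2-fold lower, 0 as reported, were 1 with a pseudocount of 0.1. Intervals above 1, 7 as reported, were 3 with the same sum and 4 by read totals. Members above the Olfr 95th percentile, 8 in each library, were 33 in GFP and 37 in NeuroD1 against the Olfr median, and 13 and 17 against the 95th percentile of vomeronasal and taste receptors. What caused the other shifts was not tested. Of single members, 6 changed sign with the same sum of FPKM and 1 with the Olfr median subtracted. Depth limits single members, as for Vamp2, where 59 and 82 reads gave an interval from 1.11 to 2.24.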
